A study of Mus musculus with 16 samples.

Results

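Notch signalling genes were followed in sorted cells of the early postnatal mouse neocortex: 3 receptors (Notch1, Notch2 and Notch3), 3 ligands (Dll1, Dll3 and Jag1), the DNA-binding partner Rbpj and 3 target genes (Hes1, Hes5 and Hey1). These 10 genes were taken by symbol from the 53379 genes of the count tables, and all 10 were found. RNA sequencing had been carried out at postnatal day 4 on green cells labelled by mosaic analysis with double markers (MADM), which couples recombination between homologous chromosomes (here chromosome 7) to the colour of a cell. In control-MADM animals (MADM7-GT/TG, genotype wt) the green cells were Eed+/+. In Eed-MADM animals (MADM7-GT/TG,Eed, titled mosaic, genotype het) the green cells were Eed-/-, in a cortex whose other cells were mostly Eed+/-. Eed is a core part of PRC2, the Polycomb complex that methylates histone H3 to keep developmental genes silent. Eed+/+ and Eed-/- cells alike came from mice labelled CD1 (by the study's methods a mixed background of CD1 and C57BL/6) with Emx1-cre, which drives recombination in progenitors of the dorsal telencephalon, and with XGFAP-lacZ, a lacZ transgene under the human GFAP promoter, and in both the green cells carried 2 paternal copies of chromosome 7. The astrocyte gate took GFP+/lacZ+ cells and the neuron gate took GFP+/lacZ- cells, so that the astrocyte groups rest on the activity of 1 promoter and the neuron groups on its absence. Each library came from 1 animal: 5 Eed+/+ astrocyte, 5 Eed-/- astrocyte, 2 Eed+/+ neuron and 3 Eed-/- neuron libraries. A further library, whose labels name both cell types, entered no comparison.

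In the Notch pathway a transmembrane ligand on 1 cell binds a receptor on its neighbour, the receptor is cleaved, and its intracellular part enters the nucleus and joins Rbpj to switch on repressors of the Hes and Hey families. In the developing cortex the pathway is known for keeping radial glia undifferentiated and for favouring astrocyte formation, while cells that begin to differentiate into neurons show ligands such as Dll1 on their surface. Dll3 differs from the other ligands in that it acts mainly against Notch signalling within the cell that makes it.

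Since Rbpj is the factor through which receptors reach their targets, promoter windows of RefSeq genes (GRCm38.p6, 250 bases before to 50 bases after the start) were searched on both strands for the Rbpj site GTGGGAA. Of the 10 genes 8 had a window, and Hes1 and Hey1 had none. The site was present in 1 of those 8 genes, Hes5, which held 2 matches, and it was present in 6.383% of all 32851 windows. Of 60 further genes of the pathway 47 had a window and 6 of these held the site (Psen2, Aph1a, Lfng, Spen, Hey2 and Hes7). Hey2, a further target gene, also held 2 matches, as did 0.2557% of all windows. The 250 bases before the start of both genes are shown, each on the strand of its gene, because Hes5 was the most abundant of the 10 genes in 3 of the 4 groups and the matches lie there. Capitals mark the site in either direction. In Hes5 the first match begins 226 bases and the second 83 bases before the start, and in Hey2 the match shown begins 207 bases before it, while the other one reaches past the start. In these upstream parts alone, 5.415% of all windows held a match.
Hes5 (chr4:154960673-154960922, plus strand): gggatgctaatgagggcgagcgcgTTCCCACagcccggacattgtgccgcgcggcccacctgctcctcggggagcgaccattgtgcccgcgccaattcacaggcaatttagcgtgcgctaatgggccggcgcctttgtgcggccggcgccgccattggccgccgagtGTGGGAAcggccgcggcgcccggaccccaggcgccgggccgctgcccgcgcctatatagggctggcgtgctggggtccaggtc
Hey2 (chr10:30842784-30843033, minus strand): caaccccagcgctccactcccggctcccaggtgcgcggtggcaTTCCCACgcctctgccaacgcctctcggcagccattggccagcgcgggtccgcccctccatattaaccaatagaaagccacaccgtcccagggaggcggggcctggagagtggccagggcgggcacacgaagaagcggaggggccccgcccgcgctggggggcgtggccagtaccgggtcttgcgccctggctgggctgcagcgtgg

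The libraries differed strongly in depth, from 211736 to 3178529 reads in genes, and 10 of 15 met both 1000000 uniquely aligned reads and a share of 60% uniquely aligned. Eed+/+ astrocyte replicate 3, Eed-/- astrocyte replicates 1, 3 and 4 and Eed+/+ neuron replicate 2 did not. Eed itself lay between 4.19 and 64.2 counts per 1000000 gene reads (CPM) in Eed+/+ astrocytes and between 0 and 14.1 in Eed-/- astrocytes, at 67.7 and 75.7 in Eed+/+ neurons and between 16.7 and 36.0 in Eed-/- neurons. These are reads over the whole gene, and the deleted part was not counted separately. Eed-/- astrocyte replicate 4, the shallowest library, held 0 reads of all 10 Notch genes, which by counting error alone allows a level of up to 9.64 TMM-scaled CPM (3 reads) for each. Eed-/- astrocyte replicate 1 held reads of 3 of the 10 genes, and its 10 microglia markers summed to 16433 CPM against 0 to 2996 in the other labelled libraries. The level of a gene in a bulk library cannot tell fewer expressing cells from less RNA per cell.

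The marker genes of the sorted cell types overlapped between the astrocyte and neuron libraries. The 10 astrocyte markers (among them Aqp4, Gfap and Slc1a3) summed to between 3073 and 18820 CPM in Eed+/+ astrocytes, between 2250 and 19688 in Eed-/- astrocytes and between 6141 and 8311 in the 5 neuron libraries, and every neuron library held reads of all 10. The 10 neuron markers (among them Tubb3, Map2 and Rbfox3) summed to between 253 and 4341 CPM in Eed+/+ astrocytes, between 5.22 and 2851 in Eed-/- astrocytes and between 1039 and 2731 in the neuron libraries. Of the 10 astrocyte markers 8 were higher in astrocytes, with a median log2 fold change of 0.66, and of the 10 neuron markers 6 were higher in neurons, with a median of -0.42 (astrocytes relative to neurons). In edgeR's quasi-likelihood test 0 of these 20 markers passed an adjusted p of 0.05, and 1 (Lrrn3, higher in neurons) had an unadjusted p under 0.05. The names astrocyte and neuron are therefore used for the sort gates. Of other cell types, all 10 microglia markers had fitted values above 0 in astrocytes (median log2 fold change 4.08), 9 of them with an unadjusted p under 0.05, as did all 4 erythroid markers tested (median 3.77), 2 of them with an unadjusted p under 0.05, and 0 of these 14 passed. Microglia markers summed to 12.3 to 420.3 CPM in Eed+/+ astrocytes, 0 to 16433 in Eed-/- astrocytes and 0 to 179 in neurons, and the 5 erythroid markers to 0 to 5.24, 0 to 11925 and 0 to 29.1. The highest sums were those of Eed-/- astrocyte replicate 1 for microglia and replicate 4 for erythroid markers. Their part in the cell type differences was not tested. Without these 2 libraries the change of Dll1 between cell types was -3.70.

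**Figure D1:**
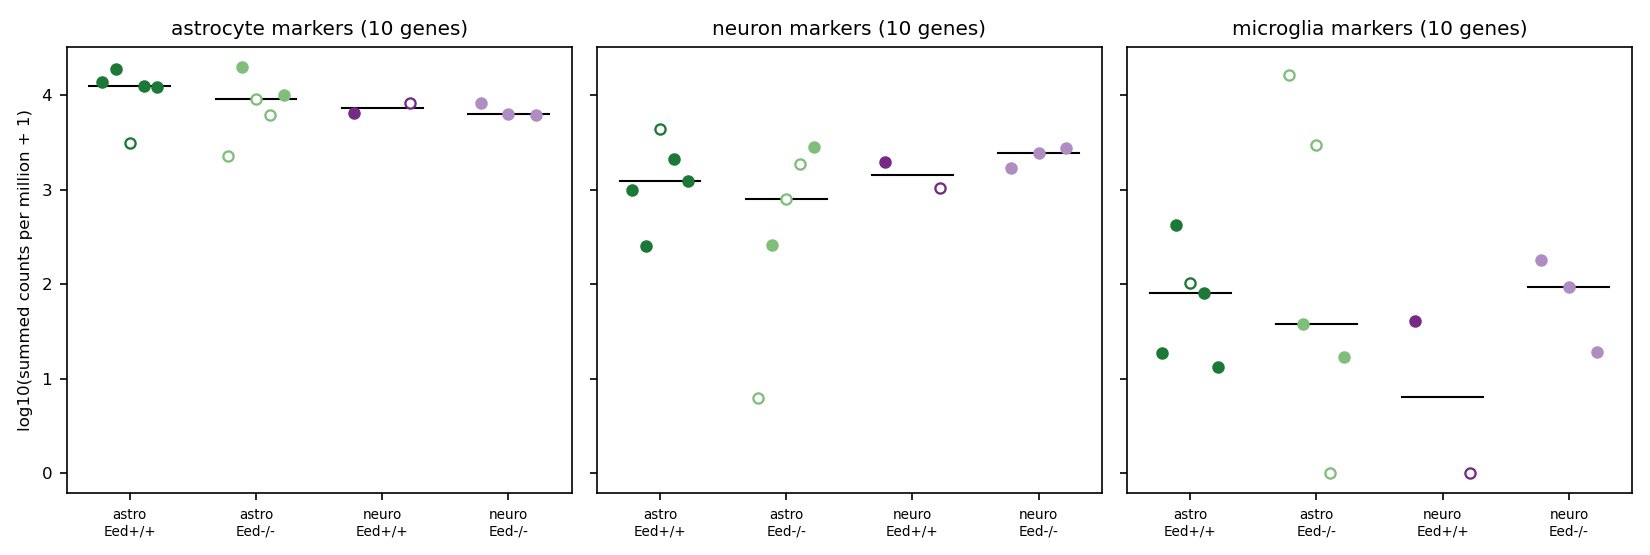
Summed level of 10 astrocyte, 10 neuron and 10 microglia marker genes in each library, as log10(summed CPM + 1), by group. Filled points are libraries within the limits of depth and alignment, open points are the others, and lines are medians. Astrocyte markers in the neuron libraries, at 6141 to 8311 CPM, lie inside the range of the astrocyte libraries, and microglia markers reach 16433 CPM in 1 Eed-/- astrocyte library.

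Levels between genes were compared per kilobase of annotated exon (TMM-scaled CPM per kilobase, mean ± SD). In Eed+/+ astrocytes (n = 5) the target genes stood first, with Hes5 at 701 ± 280, Hes1 at 130.1 ± 76.1 and Hey1 at 39.5 ± 11.9, and these 3 did not overlap within 1 SD of each other. Below them Notch2, at 26.9 ± 12.3, led the receptors, while Notch1 and Notch3 were close to each other, at 7.16 ± 1.85 and 7.11 ± 6.10. Of the ligands, Dll3 and Jag1 stood between Notch2 and Notch1, at 15.1 ± 16.4 and 7.33 ± 8.43, and Dll1 stood below Notch3, at 3.71 ± 6.46. Rbpj was lowest at 1.07 ± 0.985. From Hey1 downward each gene overlapped with its neighbour in this order within 1 SD. In Eed-/- astrocytes (n = 5) the order of the target genes was the same, with Hes5 at 286 ± 335, but for 7 of the 10 genes the SD was larger than the mean. Notch2 (8.68 ± 5.09), Notch3 (6.79 ± 6.39) and Hes1 (58.7 ± 53.8) were the exceptions.

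In the neuron libraries Dll3 and Dll1 stood higher in the order than in the astrocytes of either genotype, while Jag1 was at the seventh place in both neuron groups, against the sixth in Eed+/+ and the eighth in Eed-/- astrocytes. In Eed-/- neurons (n = 3) Hes5 was at 349 ± 79.0 and Hes1 at 147 ± 23.2, and then came Dll3 at 79.1 ± 32.3, the third of the 10 genes. Dll1, at 20.8 ± 8.47, and Notch2, at 20.6 ± 6.66, could not be separated. In Eed+/+ neurons (n = 2) Hes1, at 214 ± 106, and Hes5, at 171 ± 96.6, overlapped, and Dll3 and Dll1 followed at 42.2 ± 26.6 and 30.1 ± 2.22. Rbpj was the lowest of the 10 genes in both neuron groups, at 3.62 ± 1.95 and 1.75 ± 1.80.

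**Figure D2:**
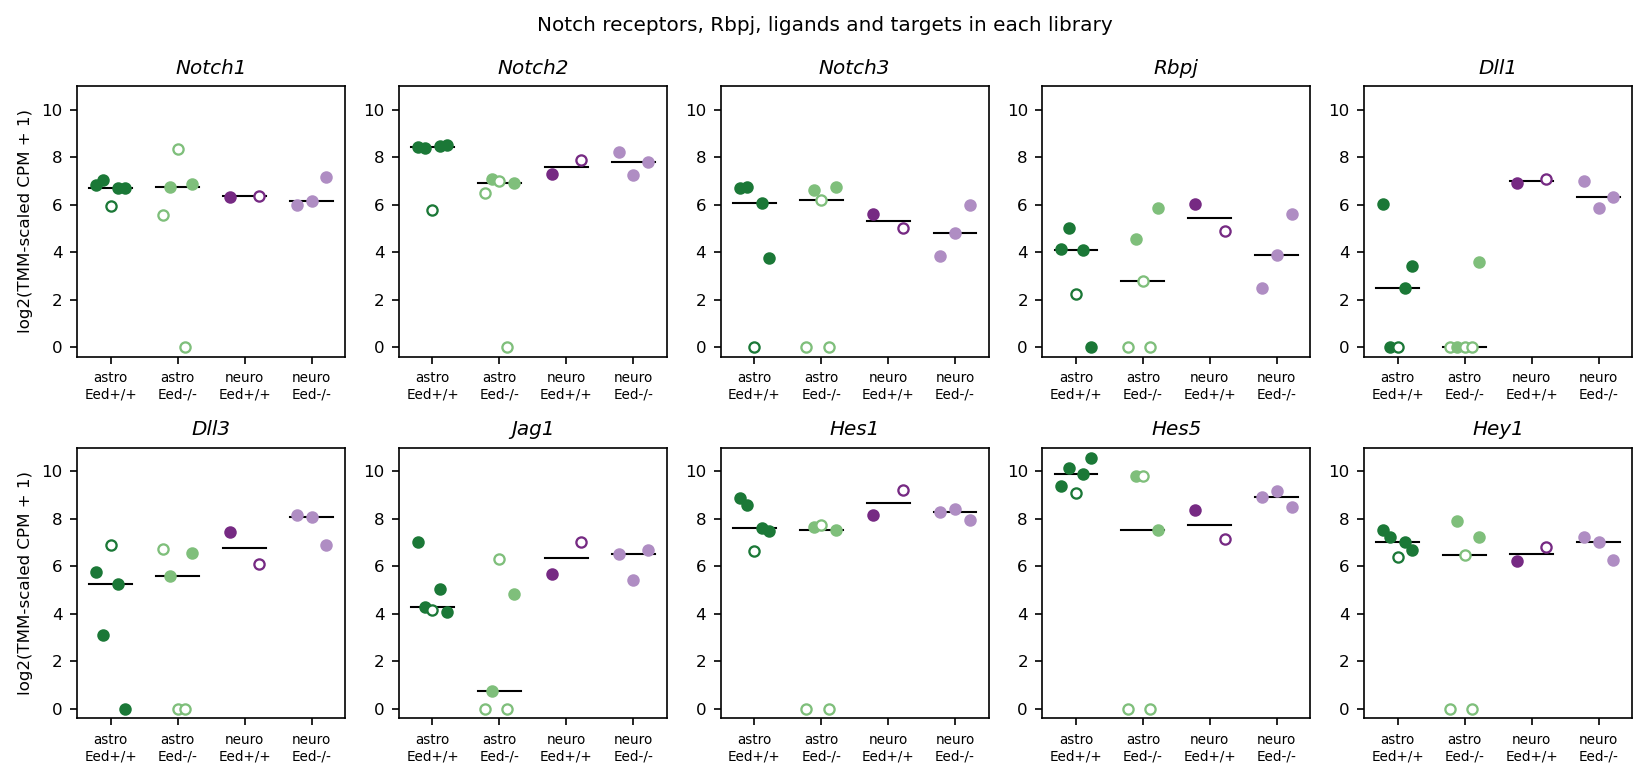
Level of each of the 10 Notch genes in every library, as log2(TMM-scaled CPM + 1), by group. Filled points are libraries within the limits of depth and alignment, open points are the others, and lines are medians. Dll1 lies at 56.8 to 134 TMM-scaled CPM in the 5 neuron libraries and at 0 in 6 of 10 astrocyte libraries, while Notch2 lies at 329.7 to 367 in 4 of 5 Eed+/+ astrocyte libraries and at 0 to 134 in the Eed-/- astrocyte libraries.

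Astrocytes were first compared with neurons over both genotypes, with all levels from here on in TMM-scaled CPM. None of the 10 genes passed the test. The fitted log2 fold changes (astrocytes relative to neurons) were between -4.02 and -1.48 for the 3 ligands and between -0.34 and 0.60 for the 3 receptors. Dll1, a ligand shown by cells entering neuronal differentiation, was the gene with the largest difference. It lay at 63.9, 0, 0, 4.64 and 9.74 in Eed+/+ astrocyte replicates 1 to 5, and the Eed-/- replicates 1 to 5 lay at 0, 0, 0, 0 and 11.2. The Eed+/+ neuron replicates lay at 120.5 and 134, and the Eed-/- neuron replicates at 127, 56.8 and 79.4. Thus 9 of 10 astrocyte libraries were below every neuron library, and Eed+/+ astrocyte replicate 1 lay above the lowest of them. The log2 fold change was -4.02 (SE 1.15) in edgeR's quasi-likelihood test, with an adjusted p of 0.248. It came from -3.001 (SE 1.63) in Eed+/+ and -5.05 (SE 1.66) in Eed-/- cells. The Eed-/- astrocytes held 11 Dll1 reads in all, from 1 of 5 libraries. The size of the Eed-/- value, and its part in the -4.02, therefore depends on how a group close to 0 is fitted. Dll1 was the only one of the 10 genes with an unadjusted p under 0.05, as had 736 of the 13367 genes tested (5.51%). Under the alternatives listed in the closing section the change lay between -7.16 and -3.38 and the adjusted p between 0.0443 and 0.909, with the threshold passed once, without Eed-/- astrocyte replicate 5. That setting leaves the Eed-/- astrocytes with 0 Dll1 reads, so its fitted value gives no size. The same holds for the first run of library numbers, where Eed-/- astrocyte replicates 1 to 3 all had 0 Dll1 reads.

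Eomes, a marker of intermediate progenitors, had reads in all 5 neuron libraries and in 1 of 10 astrocyte libraries. It had 89 and 6 reads in the Eed+/+ neuron libraries and 11, 67 and 146 in the Eed-/- neuron libraries. Among the astrocyte libraries 9 had 0 reads and Eed-/- astrocyte replicate 5 had 204, which is also the only Eed-/- astrocyte library with reads of Dll1 (11 reads). Among the neuron libraries the order was not shared, since the 2 highest Dll1 levels were in the libraries with 6 and 11 Eomes reads, and Eed+/+ astrocyte replicate 1, with Dll1 at 63.9, had 0 Eomes reads. The 6 radial glia and intermediate progenitor markers together summed to 730 to 946 CPM in Eed+/+ astrocytes, 0 to 984 in Eed-/- astrocytes and 758 to 966 in neurons. The part of such cells in the Dll1 difference was not tested.

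Dll3, on chromosome 7, lay at 53.8, 7.50, 117, 37.6 and 0 in Eed+/+ astrocytes and at 106, 46.7, 0, 0 and 92.7 in Eed-/- astrocytes. It lay at 174 and 66.9 in Eed+/+ neurons and at 284, 272 and 119 in Eed-/- neurons. The 2 cell types overlapped only through Eed+/+ neuron replicate 2, a library of 21 Dll3 reads, and 3 astrocyte libraries that exceeded it. The log2 fold change was -1.84 (SE 0.999, adjusted p 0.934 in edgeR's quasi-likelihood test). Jag1, the third ligand, reached 129.8 in Eed+/+ astrocytes (median 18.8) and 77.8 in Eed-/- astrocytes and lay at 41.3 to 131 in neurons, with a log2 fold change of -1.48 (SE 1.1). Eed+/+ astrocyte replicate 1 was the highest astrocyte library for both Dll1 and Jag1, and it had the highest sum of the 8 oligodendrocyte lineage markers (4709 CPM, against 209 to 3889.6 in the other labelled libraries). The part of such cells in the ligand levels was not tested.

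Among the receptors, Notch1 lay at 60.3 to 133 in Eed+/+ astrocytes, at 0 to 323 in Eed-/- astrocytes and at 62.2 to 142 in neurons. Its log2 fold change was 0.35 (SE 1.05), and -0.051 to 0.59 when 1 library was left out. Notch3 was at 0 to 105 in Eed+/+ astrocytes, at 0 to 106 in Eed-/- astrocytes and at 13.4 to 62.9 in neurons (log2 fold change 0.60, SE 1.17). For Notch2 the change was -0.34 (SE 0.935), from 0.57 (SE 1.47) in Eed+/+ and -1.24 (SE 1.22) in Eed-/- cells, and it turned to 0.14 with the 10 libraries within the limits. Rbpj had few reads, 0 to 85 in the astrocyte and 6 to 118 in the neuron libraries, and a log2 fold change of -1.05 (SE 1.20).

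None of the 3 target genes passed between cell types. Hes5, a repressor kept on by Notch in neural progenitors, lay at 663, 1126, 548, 937 and 1503 in Eed+/+ astrocytes and at 0, 882, 883, 0 and 182 in Eed-/- astrocytes. It lay at 326 and 140.1 in Eed+/+ neurons and at 486, 579 and 364 in Eed-/- neurons. In 6 astrocyte libraries the level was above every neuron library, in 2 it was 0, and Eed+/+ replicate 3 and Eed-/- replicate 5 lay among the neurons. The log2 fold change was 0.87 (SE 0.866), from 2.03 (SE 1.41) in Eed+/+ and -0.29 (SE 1.08) in Eed-/- cells. Hes1, which is also induced outside Notch signalling, lay at 470.3, 383, 99.8, 194 and 177 in Eed+/+ astrocytes and at 0, 203, 212, 0 and 182 in Eed-/- astrocytes. Its neuron levels were 283 and 589 in Eed+/+ and 314, 338 and 247 in Eed-/- libraries, and the log2 fold change was -1.02 (SE 0.893), from -0.72 (SE 1.35) in Eed+/+ and -1.32 (SE 1.19) in Eed-/- cells. For Hey1 the change was 0.09 (SE 1.02), with its sign depending on the scaling, from 0.48 (SE 1.58) in Eed+/+ and -0.31 (SE 1.33) in Eed-/- cells. The median of all genes was 0.08 in Eed+/+ and -0.72 in Eed-/- cells.

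Because library scaling enters each level, Hes5 was also set against Hes1 within each library, where it cancels. There were 1.41, 2.94, 5.49, 4.83 and 8.48 Hes5 reads per Hes1 read in Eed+/+ astrocyte replicates 1 to 5. The 3 Eed-/- astrocyte libraries with reads of both genes (replicates 2, 3 and 5) had 4.35, 4.15 and 1.00. In neurons the ratio was 1.15 and 0.238 in the Eed+/+ and 1.55, 1.71 and 1.47 in the Eed-/- libraries. Of the 8 astrocyte libraries 6 were above all 5 neuron libraries, and the medians were 4.25 and 1.47. The ratio was chosen after the levels had been seen and is given without a test.

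**Figure D3:**
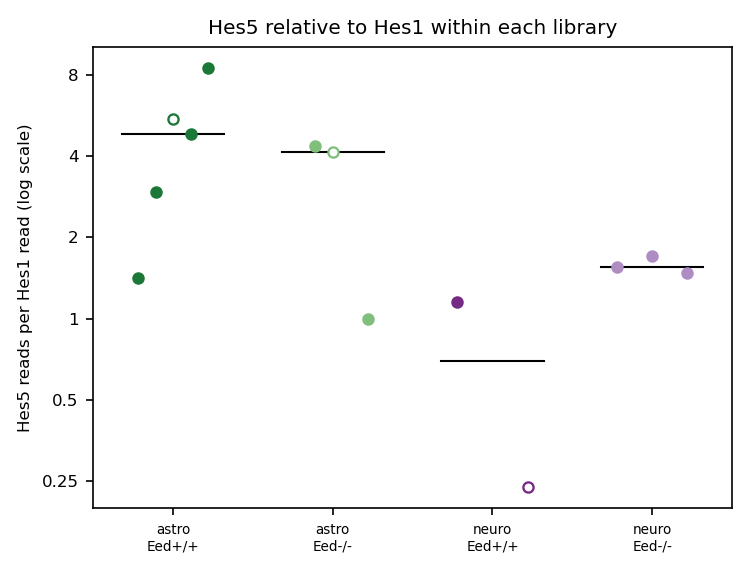
Hes5 reads per Hes1 read within each library, on a log2-scaled axis, by group. Filled points are libraries within the limits, open points are the others, lines are medians, and 2 Eed-/- astrocyte libraries without reads of both genes are not drawn. The ratio spans 1.00 to 8.48 in astrocytes and 0.238 to 1.71 in neurons.

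Over the 10 Notch genes the median log2 fold change between cell types was -0.68, against -0.34 for all 13367 genes tested. At an adjusted p of 0.05, 0 of 10 passed, and 0.015% of all genes did (2 genes, both higher in neurons). At 0.2, the threshold the study chose for astrocytes, 0 of 10 passed and 0.0449% of all genes did. Limma-voom and DESeq2 called 0 of the 10 as well.

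The study contrasted loss of Eed in sparse cells with its loss in the whole tissue. The libraries here cover the sparse case, and Eed-/- astrocytes were compared with Eed+/+ astrocytes. Of the 9 Notch genes tested (Dll1 was below the filter on low counts), 6 were lower and 3 higher in Eed-/- cells and 0 passed. Across the 8956 genes tested the share passing was 0%, with 108 genes at an unadjusted p under 0.05 (1.21%), and none of these were Notch genes. DESeq2 called 1 of the 8956 genes. The median log2 fold change was -0.40 over the Notch genes and -0.54 over all genes, or -0.37 over all genes with DESeq2's kind of size factors (RLE) and -0.02 with the libraries within the limits, so that lower values in Eed-/- astrocytes were general in the full set of libraries.

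Notch2, the most abundant receptor of Eed+/+ astrocytes, was the member furthest below that shift. Its levels were 344, 329.7, 54.6, 356 and 367 in Eed+/+ replicates 1 to 5, and the Eed-/- replicates 1 to 5 had levels of 90.1, 134, 126, 0 and 118. Each Eed-/- library lay below 4 of the 5 Eed+/+ libraries, and Eed+/+ replicate 3, with 29 Notch2 reads, lay below 4 of the 5 Eed-/- libraries. Among the Eed+/+ astrocytes this library, one of those outside the limits, had the lowest sum of astrocyte markers (3073 CPM, the others 12090.5 or more) and the highest of neuron markers (4341 CPM, the others 2115 or less). It also held 2 Eed reads (4.19 CPM), a lower level than in Eed-/- astrocyte replicates 2 and 5 (13.8 and 14.1 CPM). The part of these in its Notch2 level was not tested. The log2 fold change was -1.56 (SE 1.28, adjusted p 1.00 in edgeR's quasi-likelihood test). With the 4 Eed+/+ and 2 Eed-/- libraries within the limits it was -1.46 (SE 0.311), with an unadjusted p under 0.05, as for 488 of the 12070 genes then tested, and an adjusted p of 1.00 in edgeR's quasi-likelihood test, which 0 of the 12070 genes passed.

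The other receptors showed no such order. Notch1 lay at 111, 133, 60.3, 102 and 103 in Eed+/+ and at 46.8, 105, 323, 0 and 117 in Eed-/- astrocytes, so that both the highest and the lowest library were Eed-/-. Both were outside the limits. The highest, replicate 3, had 108 Notch1 reads and microglia markers at 2996 CPM, and the lowest was replicate 4. The log2 fold change of Notch1 was 0.29 (SE 1.35), that of Notch3 was -0.00084 (SE 1.48), and both changed sign among the alternatives. The target genes had log2 fold changes of -1.24 (SE 1.04) for Hes5, -1.09 (SE 1.26) for Hes1 and -0.40 (SE 1.35) for Hey1, none of which passed, and 6393 of the 8956 genes tested also had values below 0. In Eed-/- replicates 1 and 4 all 3 genes were at 0, and without both of them the Hes5 change was -0.55 and that of Hey1 turned to 0.30. With the libraries within the limits the Hes1 change was -0.66. The ligands Dll3 and Jag1 were at 0.22 (SE 1.5) and -0.92 (SE 1.58), and Rbpj was at 0.39 (SE 1.54). Each of these changed sign with 1 library left out.

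In neurons the same comparison gave 5 Notch genes above and 5 below 0, and 0 of 10 passed. The share of all 11862 genes that passed was 0%, with 862 (7.27%) at an unadjusted p under 0.05, of which none were Notch genes, while DESeq2 called 27 genes and again no Notch gene. Hes5 was higher in every Eed-/- neuron library (364 to 579) than in both Eed+/+ libraries (140.1 and 326), with a log2 fold change of 0.95 (SE 0.667, adjusted p 0.761 in edgeR's quasi-likelihood test). Leaving out Eed+/+ replicate 2, the library outside the limits, gave 0.52, and leaving out the other Eed+/+ library gave 1.65. Hes1 went the other way by -0.67 (SE 0.642), through the 589 of Eed+/+ replicate 2, and was at 0.05 without that library. Rbpj was at 63.7 and 28.7 in Eed+/+ and at 4.73, 13.9 and 48.3 in Eed-/- neurons (log2 fold change -1.16, SE 0.912), and its change was -0.48 without Eed+/+ replicate 1, -0.68 without Eed-/- replicate 1 and -2.36 without Eed-/- replicate 3. Dll1 was at -0.65 (SE 0.619), and at -0.995 to -0.43 when 1 library was left out, with the ends given by leaving out Eed-/- replicates 1 and 2. Dll3 was at 0.81 (SE 0.688), and without Eed+/+ replicate 2 or replicate 1 its values were 0.35 and 1.63. Notch1 and Notch2 were at 0.06 and 0.05 (SE 0.649 and 0.631), and Notch3, Jag1 and Hey1 were at -0.32, -0.32 and 0.25. All of these changed sign when 1 library was left out.

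**Figure D4:**
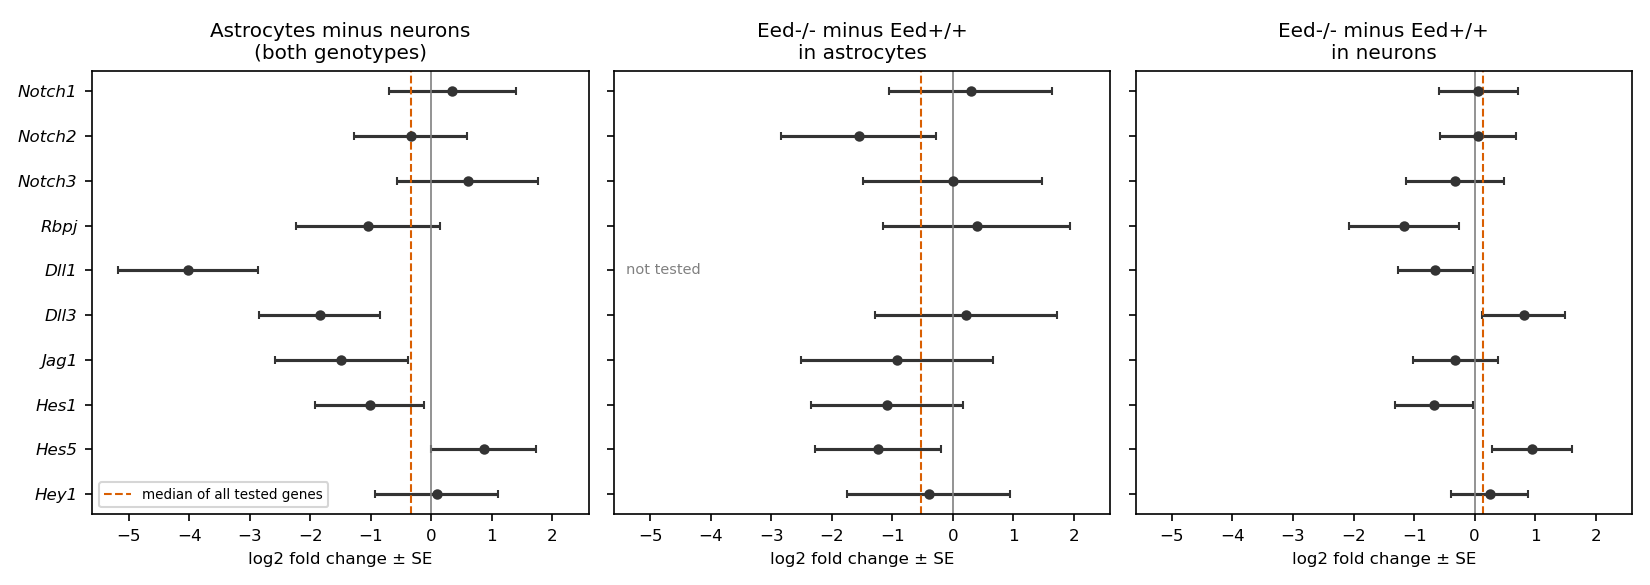
Fitted log2 fold changes with SE of the 10 Notch genes between cell types (left), and between genotypes in astrocytes (middle) and in neurons (right). The dashed line is the median of all tested genes, at -0.34, -0.54 and 0.15. Dll1, at -4.02 between cell types, lies furthest from 0, and 0 of the points passed an adjusted p of 0.05.

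Whether the Eed difference itself differed between astrocytes and neurons was tested as an interaction over all 15 libraries. Of the 10 Notch genes 0 passed, as against 7 of 13367 genes (0.0524%, all 7 positive), and 0 of the 10 had an unadjusted p under 0.05, which 3.61% of all genes had. At 0.2 again 0 of 10 passed, beside 0.0973% of all genes. DESeq2 and limma-voom called 0 of the 10. With all 15 libraries the largest interaction of a Notch gene was that of Hes5, at -2.32 (SE 1.73, adjusted p 1.00 in edgeR's quasi-likelihood test), followed by Dll1 at -2.05 (SE 2.41) and Notch2 at -1.81 (SE 1.95). Within the limits Rbpj (2.84, SE 1.90), Jag1 (-2.44, SE 1.82) and Notch2 (-1.90, SE 0.627) lay further from 0 than Hes5 (-1.46, SE 0.911), and 0 of the 10 passed there as well. The median over all genes was -0.79, and it moved to -0.31 with RLE size factors, while the median of the Notch genes was -0.74.

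The remaining machinery of the pathway was covered by 60 further genes, of which 43 to 55 were tested in each comparison and 0 passed in any of the 4. DESeq2 and limma-voom called 0 of them as well. The fit over all 4 groups called 1 of them between genotypes in astrocytes, beside 46 of all 13367 genes. Calls of fits that leave 1 library in a group are not given here. At an unadjusted p under 0.05 there were 0 in astrocytes, 3 in neurons, 4 between cell types and 2 in the interaction, where 1.21%, 7.27%, 5.51% and 3.61% of all genes had such a p. The genes named next are among those with the smallest p in each direction, none of which passed.

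Between cell types, Dll4, a further ligand, had a fitted log2 fold change of -3.48 (SE 1.42), but it had 0 reads in all 5 Eed-/- astrocyte libraries, so this value depends on how a group at 0 is fitted. In Eed+/+ cells alone its change was 0.10, with levels of 3.17, 25.5, 0, 0.464 and 0 in astrocytes and 10.3 and 0 in neurons, and the Eed-/- neurons lay at 7.88, 22.7 and 7.62. Nrarp, a feedback inhibitor of Notch that is itself a target, and Dtx2, of the Deltex family, stood at 2.18 (SE 1.28) and 1.31 (SE 1.21) on the astrocyte side. By function, all 4 genes of ligand endocytosis and 7 of 8 coactivators had fitted values below 0, as had 8557 of all 13367 genes, and 0 of them passed. Their medians were -1.34 and -1.24 and that of the 9 inhibitors was 0.29, against the -0.34 of all genes. The 4 include Neurl1a, at 0 reads in every Eed-/- astrocyte library, and Mib2, which turned to 0.26 within the limits. The 9 genes of receptor cleavage, such as the presenilins, had a median of -0.26 and the 10 corepressors of -0.43, close to that of all genes.

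Between genotypes in astrocytes, Numbl and Kat2b were at -2.41 (SE 1.64) and -2.40 (SE 1.66), and Dtx2 and Mfng at 2.53 (SE 1.5) and 1.97 (SE 1.47). Numbl had 0 reads in Eed-/- replicates 1 to 4 and Kat2b in replicates 1, 3 and 4, and within the limits they were at -1.55 and -1.03. Numbl is a relative of the Notch inhibitor Numb, Kat2b is an acetyltransferase, and Mfng is a fringe enzyme that adds sugars to the receptors. Dtx2 was highest in Eed-/- astrocyte replicate 1 (464), where microglia markers summed to 16433 CPM, and Mfng in replicate 4 (231.5), where the 5 erythroid markers summed to 11925 CPM. Within the limits, without these libraries, Dtx2 was at 1.31 (SE 0.675) and Mfng at 1.75 (SE 1.94). In neurons Itch, a ubiquitin ligase, was at -1.85 (SE 0.682), and at -1.72 without Eed+/+ neuron replicate 2, the library outside the limits. Lfng, a fringe enzyme, was at -1.84 (SE 0.731) with that library and at -0.20 without it. Nrarp and the proneural factor Neurog2 were at 1.67 (SE 1.06) and 1.26 (SE 0.825), and at 1.04 and 0.77 without Eed+/+ neuron replicate 2. Lfng lay at 468 in Eed+/+ neuron replicate 2 and at 67.7 to 123 in the other 4 neuron libraries. In the interaction Dll4 and Neurl1a, a ubiquitin ligase for ligands, were the genes with the smallest p below 0, but both had 0 reads in all 5 Eed-/- astrocyte libraries, so their fitted values give no size. Neurog2 and Neurl1b had the smallest p above 0, at 4.39 (SE 2.25) and 4.73 (SE 2.45), and each value rests on 1 library. Among the Eed-/- astrocyte libraries, Neurog2 had reads in replicate 1 alone (788) and Neurl1b in replicate 4 alone (337.6). Within the limits, where both genes had 0 reads in the Eed-/- astrocytes, both values turned below 0.

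**Figure D5:**
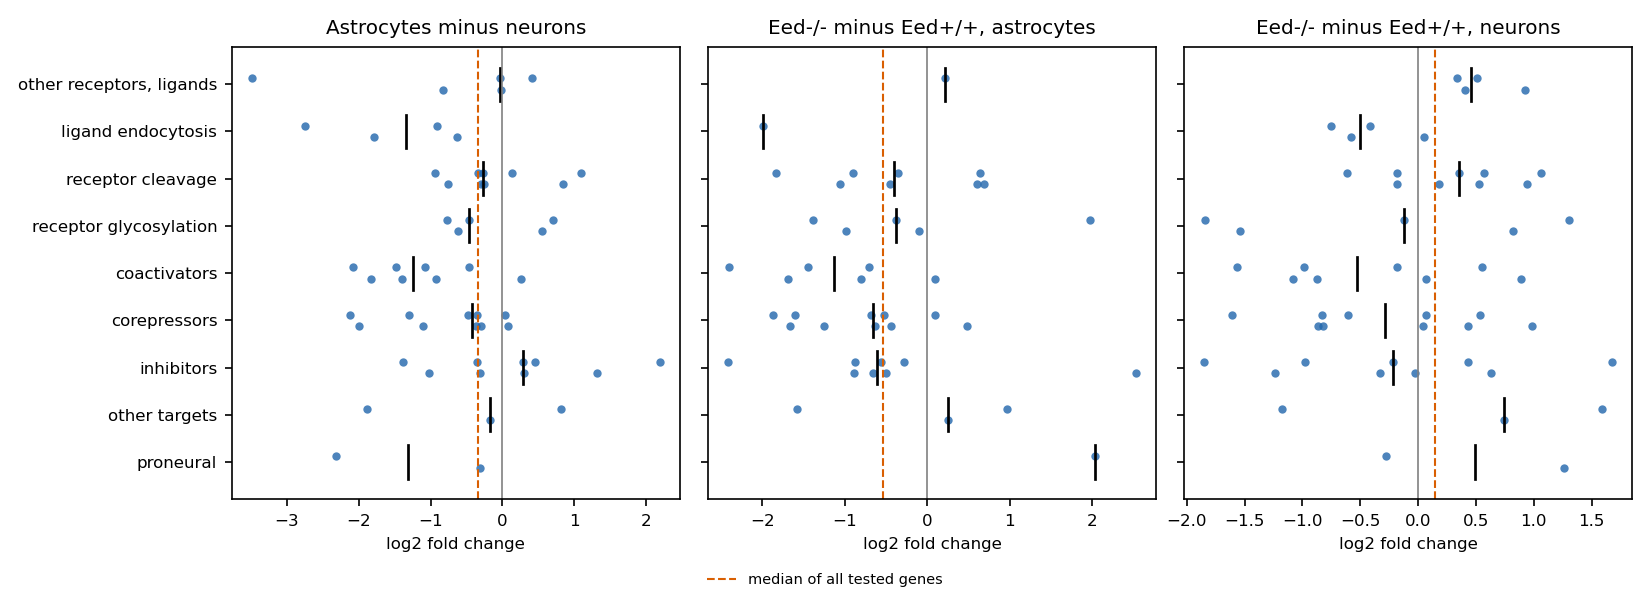
Fitted log2 fold changes of the further pathway genes, 1 point per gene, grouped by function, between cell types (left), and between genotypes in astrocytes (middle) and in neurons (right). Black lines are the medians of a group and the dashed line is the median of all tested genes. The 4 genes of ligand endocytosis lie below 0 between cell types, at -2.74 to -0.63, and 0 of the points passed an adjusted p of 0.05.

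Genes whose level followed a Notch gene most closely over the 15 libraries were looked up for 1 gene of each role, as a description, since the libraries share their differences in depth. Notch1 was followed by Clstn1, Fat1 and Dgcr2 with Spearman's rho of 0.903, 0.888 and 0.886, which fell to 0.721, 0.636 and 0.721 over the 10 libraries within the limits. Hes5 was followed by Glmp, Ppp1r16a and Lxn at 0.972, 0.964 and 0.954, and at 0.939, 0.952 and 0.915 over those 10 libraries. The 10 are among the 15 by which the genes were chosen, so the values over them are no separate check. Dll1 was at 0 in 2 Eed+/+ and 4 Eed-/- astrocyte libraries. The genes that followed it were Rbm12b1, Slc2a3 and Rph3a at 0.948, 0.941 and 0.935, and over the 10 libraries 0.875, 0.924 and 0.866.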

How the data were processed

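The deposited files hold raw counts of reads per gene, made by the authors with STAR on GRCm38 (mm10) from Smart-Seq2 libraries, unpooled and not normalized. For the annotation behind the counts the study refers to an earlier publication, which was not used here. The unstranded column was used, since 46.7% to 52.7% of stranded reads fell on the first strand. Symbols, coordinates and exon lengths came from GENCODE release M21, which matched 53274 of 53379 identifiers. Reads outside genes (8.55% to 71.6% of uniquely aligned reads) and ambiguous reads (0.934% to 5.66%) entered no test. Genes were tested two-sided with edgeR 4.0.16 in R 4.3.3 (TMM scaling, filterByExpr, robust quasi-likelihood fit, Benjamini-Hochberg adjustment over all genes tested, threshold 0.05), with DESeq2 1.42.0 and limma-voom 3.58.1 as alternatives. Genotype was fitted within each cell type, and cell type and interaction over all 15 libraries. SE is the log2 fold change divided by the root of F. The procedure was run on simulated data. Their spread was smaller than that fitted in astrocytes and over all 15 libraries, so the run does not show its power there. Levels are counts per 1000000 effective gene reads, and floors (3 reads) cover counting error only. The study set some libraries aside without naming them, so all were kept. Same-numbered libraries correlated at -0.25 to 0.16 in their deviations from the group means, and astrocyte and neuron libraries of 1 genotype at -0.05 to 0.12. Groups this small cannot show whether libraries shared an animal, and none were paired. The tests over all 15 libraries treat them as independent. Genes were named if among the 10, or, of the pathway, past the threshold (otherwise the 2 smallest p per direction), or among the 3 of highest rho. Of the genes so chosen, 1 is not reported here. The members and lists were chosen with earlier results of these data known.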

Additional observations from a re-analysis of the deposited data

Results flagged for a closer look

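Among the 20 tests for a stray library (10 Notch genes in each astrocyte group of 5), 4 found the highest or lowest library set apart from its group. The cut-off gives about 1 in 20 by chance for normally distributed values and independent tests. These levels come from counts with many at 0, and the genes share their libraries, so the 4 cannot be read against that rate. Notch2 in Eed+/+ astrocyte replicate 3 lay at 54.6 TMM-scaled CPM, with the nearest other library at 329.7. The same library had the lowest astrocyte marker sum (3073 CPM) and the highest neuron marker sum (4341 CPM) of its group. Dll1 lay at 63.9 in Eed+/+ astrocyte replicate 1, with the next at 9.74, and at 11.2 in Eed-/- astrocyte replicate 5, with the others at 0. A single library with reads among libraries at 0 is always set apart in this way, so this last case says nothing about its spread. Jag1 lay at 129.8 in Eed+/+ astrocyte replicate 1, with the next at 32.

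In the library that the labels put in no group, 3 Notch genes were above their level in every Eed+/+ library (CPM without TMM scaling, 221456 reads in genes). Its uniquely aligned share was 17.7% and 2397 genes had a read, against at least 26.1% and 2959 in the labelled libraries. This limits what its levels show. Notch1 was at 298 against at most 111 in the Eed+/+ libraries and at most 268 in all labelled libraries. Notch3 was at 641 against at most 92.9 and 105, and Hey1 at 271 against at most 164 and 188. Notch2 had 1 read there and the other 6 genes had 0.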

How the results depend on the processing

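Of 751 fitted changes of single Notch genes under another setting or with a library left out, 680 kept their direction and side of the threshold, 70 changed sign and 1 passed the threshold. That was Dll1 between cell types without Eed-/- astrocyte replicate 5, the only one of its group with Dll1 reads, so that 0 to 1 Notch genes were called there when 1 library was left out and 0 in every other setting run. Depth limits the Eed-/- astrocytes most: 3 of 5 were outside the limits and 1 held no read of a Notch gene.

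The number of all genes called moved as follows. Between genotypes in astrocytes (0 genes) DESeq2 gave 1, no filter on low counts 5 and a fit over all 4 groups 46, and leaving out 1 library gave 0 to 1. In neurons (0 genes) DESeq2 gave 27, no filter 127, the libraries within the limits 1 and the fit over all 4 groups 3, and leaving out 1 library gave 0 to 2601, the latter without Eed+/+ replicate 1, where only the replicate outside the limits is left. Between cell types (2 genes) DESeq2 gave 5 and an adjusted p of 0.2 gave 6, and 0 were called with limma-voom, no filter, the libraries within the limits, the replicate block, the first run of library numbers, or without Eed-/- astrocyte replicates 1 and 4. Leaving out 1 library gave 0 to 5. In the interaction (7 genes) RLE size factors gave 21, an adjusted p of 0.2 gave 13 and no filter gave 2. The replicate block gave 2, and limma-voom, the libraries within the limits, the first run of library numbers and the removal of both libraries gave 0. Leaving out 1 library gave 1 to 12.

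Replicate numbers that groups share were also fitted as a block, although it was not known whether equal numbers mean the same animal. With the replicate block, Notch1 turned to -0.57 and Rbpj to -0.92 between genotypes in astrocytes, Notch1 to -0.40 in neurons and Hey1 to -0.065 between cell types. In the interaction Notch1 turned to -0.11, Notch3 to -1.69 and Rbpj to -0.88.

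The other changes of sign were as follows, and the cause was not tested. Between genotypes in astrocytes Notch1 turned to -0.054 with limma-voom, -0.0050 within the limits and -0.041 with the run as a covariate. Notch3 turned to 0.075 with RLE, 0.073 with DESeq2, 0.50 within the limits, 0.11 with the run and 0.68 without Eed-/- replicates 1 and 4, a setting added after the data had been seen. Hey1 turned to 0.47 within the limits and 0.30 without those 2. In neurons limma-voom gave Notch1 at -0.29 and Jag1 at 0.13, and the limits gave Jag1 at 0.61 and Hes1 at 0.054. Between cell types Hey1 turned to -0.0069 with RLE, -0.0059 with DESeq2 and -0.19 with limma-voom, and Notch2 to 0.14 within the limits. In the interaction Notch1 turned to -0.11 with limma-voom, -0.14 without a filter and -0.15 within the limits, Notch3 to -0.0042 without a filter and -0.68 in the first run, Dll3 to 1.15 within the limits, Rbpj to -0.20 in the first run and Hes1 to 0.10 without both libraries.

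Leaving out 1 library gave ranges that crossed 0. In astrocytes they were -0.57 to 0.59 for Notch1, -0.41 to 0.32 for Notch3, -0.28 to 1.15 for Dll3, -2.51 to 0.074 for Jag1 and -0.83 to 0.95 for Rbpj. In neurons they were -0.36 to 0.28 for Notch1, -0.22 to 0.46 for Notch2, -1.04 to 0.072 for Notch3, -0.87 to 0.61 for Jag1, -1.10 to 0.054 for Hes1 and -0.038 to 0.66 for Hey1. Between cell types they were -0.051 to 0.59 for Notch1 and -0.22 to 0.29 for Hey1. In the interaction they were -0.75 to 0.52 for Notch1, -0.24 to 0.91 for Notch3, -6.84 to 0.016 for Dll1 (the first without Eed-/- astrocyte replicate 5, and no size), -1.59 to 0.10 for Dll3 and -2.32 to 0.20 for Jag1.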
